A study of Mus musculus with 18 samples.

Results

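The comparison described here sets IC-21, an established line of mouse macrophages, against primary mouse peritoneal macrophages after the same exposure to lipopolysaccharide (LPS), the cell wall component by which Gram-negative bacteria activate macrophages. The 6 libraries were those titled IC-21-siControl, replicates 1 to 3 (called IC-21 here), and Macrophage-WT, replicates 1 to 3 (WT), out of 18 RNA sequencing libraries in the series. No Smim30 mutation is named for any of the 6, and all were of strain C57BL/6J by their labels, and had received LPS at 5 ng/ml for 6 h. The WT cells were peritoneal macrophages of wild-type mice, seeded in wells, with no other treatment named. The IC-21 cells had received a control siRNA by their titles, and the 24 h of transfection before LPS is stated for the Smim30 siRNA. The labels call each group triplicates without saying whether these were separate mice or separate cultures. The p-values set the difference between groups against the spread of these libraries, and that spread may be technical. Cell source and transfection change together between the groups, as would any batch or difference in culture, and these cannot be told apart. The time of WT cells in culture before LPS is not given in the sources used here. No library without LPS was analysed here, so the values are levels after LPS and not inductions by it.

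Macrophages of the peritoneal cavity depend on the growth factor receptor Csf1r and the transcription factor PU.1 (Spi1), and the resident large ones on the factor Gata6. LPS is handed by Cd14 to the complex of Tlr4 and Ly96 (MD-2), which signals through Myd88 to NF-kB and cytokine genes, and through Ticam1 (TRIF) to Irf3 and interferon beta. Secreted interferon then acts through Ifnar1, Ifnar2, Stat2 and Irf9 on interferon-stimulated genes. IC-21 was made from C57BL/6 peritoneal macrophages by transformation with simian virus 40, whose large T antigen binds the retinoblastoma and p53 proteins. It is a single line, which limits what it can stand for.

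Depth was 8531179 to 11198446 assigned read pairs in WT and 6855245 to 11990126 in IC-21. CPM is a gene's counts relative to its library's total, corrected with edgeR's TMM factors for composition unless stated. Without those factors, libraries of a group had Pearson's r of log2 CPM of at least 0.9919 across genes. Pairs from different groups had r of 0.739 to 0.747. The 20 most abundant genes held 16.3 to 16.7% of counts in WT and 7.5 to 7.87% in IC-21, and ribosomal RNA genes held 1.74 to 2.49% and 0.195 to 0.414%. Of 14066 genes tested with edgeR's quasi-likelihood test, 80.3% were called at a Benjamini-Hochberg adjusted p under 0.05, with 5645 (40.1%) higher and 5654 (40.2%) lower in IC-21. At least 2-fold differences among the called genes numbered 3172 higher (22.6% of all tested) and 2868 lower (20.4%). These shares are the background against which each gene list below is to be read, and the median log2 difference over all genes tested was 0.01. With library totals alone in place of TMM factors this median was 0.72, and 75.2% of called genes were higher against 49.96% with TMM. All differences below are therefore relative to the bulk of genes. That shift moves genes up in IC-21, so genes lower by less than it have no settled direction. For genes higher by less than it, the size depends on the scaling.

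**Figure D1:**
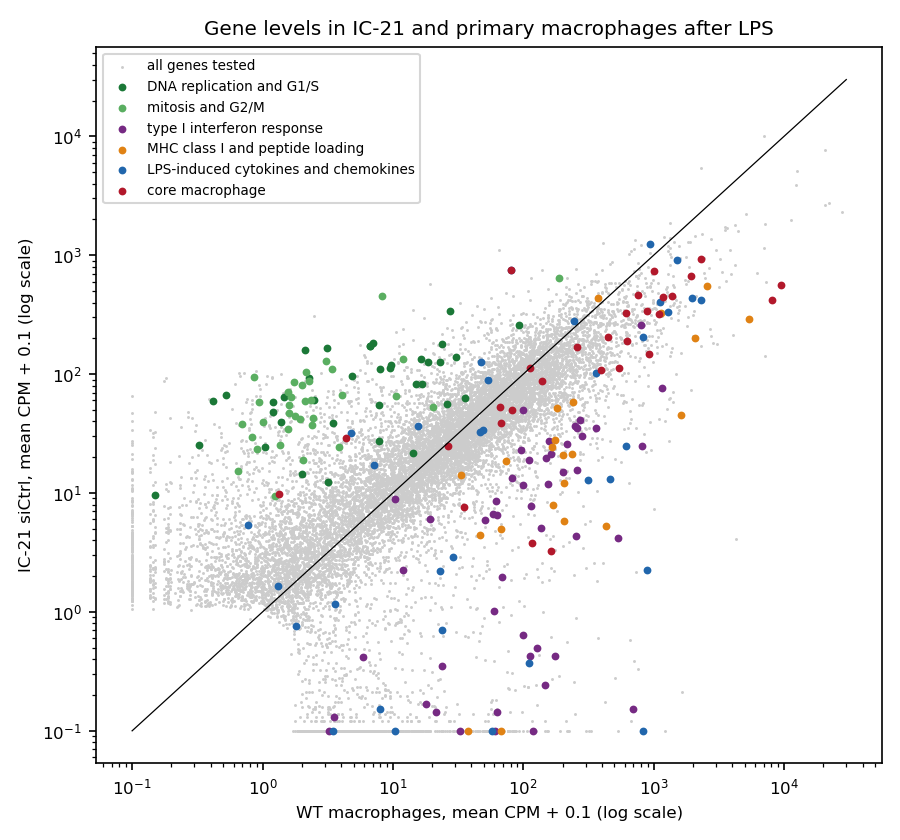
Mean CPM plus 0.1 of each gene tested in WT macrophages (horizontal, log scale) and IC-21 (vertical, log scale), 3 libraries a group, with 6 gene lists in colour and equal levels on the line. Replication and mitosis genes lie above the line, and interferon and MHC class I genes lie below it, some of them at 0 in IC-21.

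The genes most strongly lower in IC-21 encoded matrix, chemoattractant and signalling proteins of the primary cells. Among called genes with an average log2 CPM of at least 2 and no overlap between groups, the 10 lowest in IC-21 included Fn1 (fibronectin) at 1269, 1179.9 and 1239 CPM in WT. No count of Fn1 was seen in the 3 IC-21 libraries, which makes it at least 4545-fold lower there against a floor of 3 counts per library. Also at 0 in IC-21 were Cxcl1, a neutrophil chemokine (826 ± 27.9 CPM in WT, mean ± SD, n = 3 here and below), Cmklr1, the receptor for chemerin (531 ± 26.7), and Axl, a receptor kinase for dying cells (329 ± 14.9). The same held for Cdkn1c, an imprinted cell cycle inhibitor (302 ± 2.41 CPM), Ms4a6c (216 ± 19.8), Ly6e (189.9 ± 14.7) and Mamdc2 (223 ± 9.04). The lower bounds on these differences ran from 702-fold for Ly6e to 3055-fold for Cxcl1. Ptgs2, the inducible cyclooxygenase of prostaglandin synthesis, was also among the 10, with 649.6, 699.9 and 653 CPM in WT and 1 count in all of IC-21, a ratio of 23273 (95% interval 4176 to 919281) that covers counting error only.

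The 10 genes most strongly higher in IC-21 had no count in any WT library. The highest was Plb1, a phospholipase, at 68.9, 62.95 and 63.3 CPM in IC-21, at least 163-fold above the floor. Dlgap2, a scaffold protein of synapses, reached 47.4 ± 2.002 CPM, Nox3, an NADPH oxidase best known from the inner ear, 40.2 ± 2.48, and Pgbd5, a transposase-derived protein, 33.7 ± 1.78. Astn2, Cadps, Col4a4, Gipr and Iqcg, with roles in neurons, secretion, basement membrane, incretin signalling and cilia, lay between 15.9 and 27.5 CPM. The agouti gene a, which encodes a pigment signal, was at 26.3 ± 1.75 CPM. None of these genes belongs to a macrophage list.

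Core macrophage genes were mostly retained in IC-21 at lower levels. Of 29 tested, 16 were at least 2-fold lower, 3 were at least 2-fold higher and the median log2 difference was -1.32. With library totals alone, 10 rather than 16 were lower by that much. Csf1r was at 1146, 1177 and 1184 CPM in WT and 444, 441 and 456 CPM in IC-21. The groups did not overlap, and the receptor was 2.61-fold lower in the line (log2 -1.39, SE 0.044, adjusted p = 4.97e-31, edgeR). Adgre1, which encodes the F4/80 surface antigen, was at 860.3, 909 and 904 CPM in WT and 335, 341 and 349.6 CPM in IC-21, also without overlap (2.61-fold lower, log2 -1.38, SE 0.044).

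Among the transcription factors, Spi1 was 2.19-fold lower in IC-21, at 444 ± 9.05 against 204 ± 13.6 CPM. Cebpa, a factor of myeloid differentiation, stood much further apart with 178, 158 and 152 CPM in WT and 3.29, 3.03 and 3.19 CPM in IC-21 (51.4-fold lower). The integrin Itgam (CD11b) was at 111 ± 2.55 and 112 ± 4.76 CPM and was not called, although library totals alone (log2 0.70) and upper-quartile factors (0.19) placed it higher in IC-21.

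Other members of the list differed by more than Csf1r. Lyz2 (lysozyme) was at 9520.3 ± 362 CPM in WT against 564 ± 25.1 CPM in IC-21 (16.9-fold lower), and the protease Ctss at 8097 ± 316 and 423 ± 22.02 (19.1-fold lower). Mertk, a receptor for dying cells like Axl, was 31.01-fold lower. In the other direction, Csf1, the ligand of Csf1r, was at 72.7, 84.1 and 85.4 CPM in WT and 804, 724 and 739.9 CPM in IC-21. Every IC-21 library was above every WT library, and Csf1 was 9.35-fold higher in the line (log2 3.23, SE 0.056, adjusted p = 3.88e-38, edgeR). Fcgr1, the high-affinity receptor for IgG, and Aif1, an actin-binding protein, were 6.77-fold and 7.46-fold higher.

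**Figure D2:**
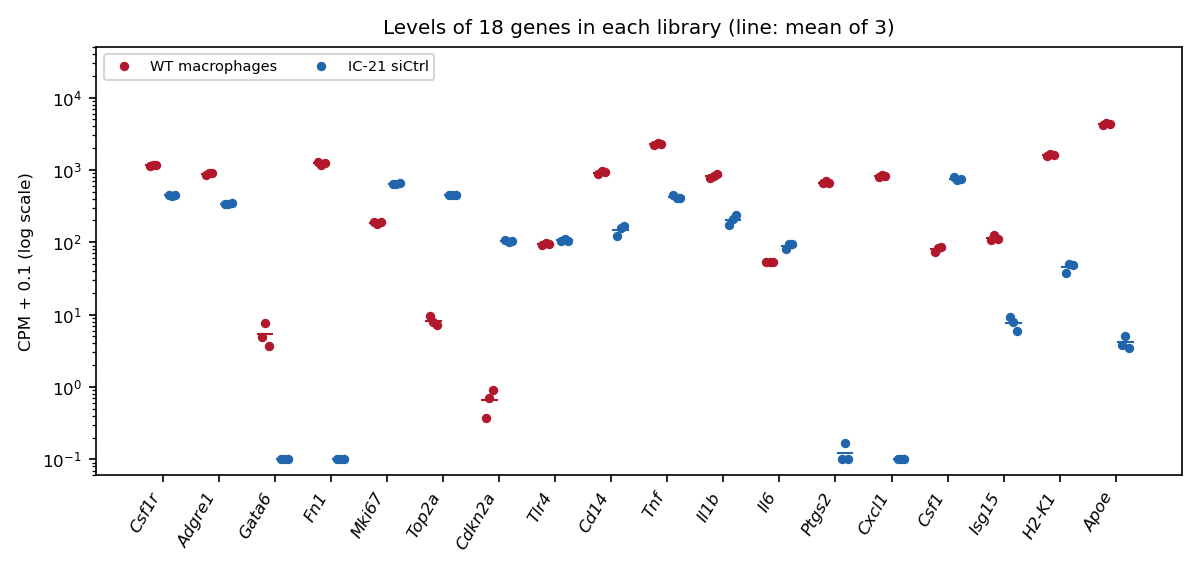
CPM plus 0.1 (log scale) of 18 genes in each WT library (red) and IC-21 library (blue), with a line at each mean. The points of the groups lie closest together for Tlr4, then for Il6, and further apart for the other genes shown.

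Genes of resident large peritoneal macrophages were lower in IC-21 or at 0. Of 24 tested, 19 were at least 2-fold lower and 2 were at least 2-fold higher, and the median log2 difference was -5.26, or -4.06 with genes at 0 set at their bound. Gata6 itself was low in WT, at 4.85, 7.67 and 3.56 CPM, and had no count in IC-21, at least 19.8-fold lower. Timd4, the phosphatidylserine receptor of resident cells, and Vsig4, a complement receptor, were likewise low in WT (4.18 ± 0.165 and 4.56 ± 1.22 CPM) and at 0 in IC-21. F10, which encodes coagulation factor X, was far more abundant in WT at 1588, 1696 and 1634 CPM, against 4 counts in all of IC-21. Thrombospondin (Thbs1) was 55.3-fold lower and Saa3, an acute phase protein, 26.7-fold lower. Naip1, a receptor component of the NLRC4 inflammasome, was 8.15-fold higher in IC-21, and Garnl3 4.72-fold higher. Icam2 and Itga6, both surface markers of large macrophages, were not called (adjusted p = 0.72 and 0.43, edgeR). The monocyte and small macrophage list gave 10 of 11 tested genes at least 2-fold lower, among them Itgax (CD11c), at 985 ± 42.1 and 127 ± 2.41 CPM.

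Markers of other cell types were also measured, and most of their sums were higher in WT. The summed level of 22 mesothelial and fibroblast markers was 403 to 435 CPM in WT and 0.198 to 0.364 CPM in IC-21, where 17 of the 22 had no count and none had more than 3. Collagen genes led this sum, with Col1a2 at 83.9 ± 9.14 CPM in WT. Summed B cell markers were at 113 to 125 CPM in WT and 67.5 to 69.1 CPM in IC-21. In IC-21 that sum came from 2 genes, Cd22 (46.5 ± 2.34 CPM) and Bank1 (21.6 ± 1.56 CPM), and 8 of the 13 markers had no count. Cd22, with a log2 difference of -0.93, made up most of the sum in WT as well. The line itself has Cd22 RNA, so the sum is not a measure of B cells alone. Mast cell markers summed to 12.3 to 16.5 CPM in WT and 1.14 to 1.55 in IC-21, with 10 of 11 at 0 there. The sums for neutrophils and eosinophils were 207 to 219.8 and 34.6 to 40.8, and for dendritic cells 60.3 to 63.1 and 9.54 to 10.6. The sum for T and NK cells was 3.5 to 5.87 in WT and 30.2 to 34.2 in IC-21, mostly Cd28 at 26.6 ± 2.401 CPM. Fn1, Thbs1 and Mmp14 are also made by mesothelial cells and fibroblasts, and the part of such cells in the WT levels was not tested. In bulk RNA, fewer cells of a type and less RNA per cell cannot be told apart.

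Genes of DNA replication and mitosis were higher in IC-21 without exception among those listed. All 37 replication genes were called higher, 35 of them by at least 2-fold, with a median log2 difference of 3.64. All 34 mitosis genes were at least 2-fold higher, with a median of 4.87. These directions and the count of 34 were kept with library totals alone and with every other scaling.

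The licensing factor Cdc6 was at 0.944, 1.505 and 1.38 CPM in WT and 38.8, 40.6 and 38.2 CPM in IC-21, 30.5-fold higher. The helicase subunit Mcm7 was at 7.01, 7.22 and 6.43 and 187, 182 and 179.7 CPM, 26.6-fold higher. Cyclin E2 (Ccne2) and claspin (Clspn), which act at the start of S phase and at the replication fork, had the widest gaps with enough counts, 148-fold and 186-fold. Pcna, the sliding clamp, was already at 92.8 ± 2.01 CPM in WT and was 2.81-fold higher in IC-21. The smallest differences were those of Gins4 (1.52-fold) and E2f8 (1.77-fold).

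In mitosis the order was similar. Top2a, the topoisomerase that untangles chromosomes, was at 9.44, 7.82 and 7.003 CPM in WT and 455, 449.6 and 451 CPM in IC-21 (56.1-fold, log2 5.81, SE 0.072). The checkpoint kinase Bub1 was 124-fold higher, the survival protein Birc5 69.1-fold and the ubiquitin enzyme Ube2c 44.3-fold. Mki67, the common proliferation marker, was at 191, 179 and 189 CPM in WT and 643, 644 and 657 CPM in IC-21. The groups did not overlap, yet its 3.47-fold difference (log2 1.80, SE 0.045, adjusted p = 5.47e-35, edgeR) was among the smallest of the list, with only Bub1b below it (2.61-fold). Per kilobase of transcript, WT held 18.5 CPM of Mki67 against 0.897 of Top2a, and IC-21 held 64.4 against 50.1.

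Promoters of these genes are shown because the groups moved together and because E2F factors, which the retinoblastoma proteins hold in check, bind many of them. RefSeq promoter sequences of the GRCm38.p6 assembly were found for 29 of the 37 replication genes. Here and below only the 250 bases before the start were searched, in the first promoter listed for each gene. The 50 bases after the start and other promoters of a gene were not used. The E2F core letters GCGGGAA, on either strand, occurred in 31.0% of these, in 7.15% of 8962 promoters of protein-coding genes tested and in 3.84% of all 27025 promoters. Each 100-base window below lies before the start, with the E2F core in capitals. All windows printed were chosen by size of difference among listed genes whose promoter held the letters. Their presence in a window was therefore set by the choice.
Cdc6, chr11:98907966-98908065, plus strand: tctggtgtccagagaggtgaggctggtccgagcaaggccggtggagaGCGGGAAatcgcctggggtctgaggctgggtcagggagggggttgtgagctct
Mcm7, chr5:138171996-138172095, minus strand: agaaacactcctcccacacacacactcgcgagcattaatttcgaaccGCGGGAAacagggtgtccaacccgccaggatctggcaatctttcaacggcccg
Promoters were found for 29 of the 34 mitosis genes. The cell cycle homology region letters TTTGAA, on either strand, occurred in 27.6% of them, in 10.7% of promoters of protein-coding genes tested and in 16.3% of all promoters, and CCAAT boxes in 72.4%, 36.9% and 34.5%. No GCGGGAA was found in the 29. The windows below end 1 base before the start, with the reverse complement TTCAAA in capitals.
Top2a, chr11:99024190-99024289, minus strand: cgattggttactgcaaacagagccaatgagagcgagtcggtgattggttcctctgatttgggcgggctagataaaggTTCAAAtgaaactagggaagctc
Ube2c, chr2:164769829-164769928, plus strand: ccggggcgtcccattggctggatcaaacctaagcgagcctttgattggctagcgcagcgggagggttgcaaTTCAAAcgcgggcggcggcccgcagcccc
A match of letters describes the window and shows no binding.

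Regulators of the cycle split in both directions, with 8 of 23 tested at least 2-fold higher and 8 at least 2-fold lower. Cdkn2a, the locus of the inhibitors p16 and p19ARF, was at 0.2696, 0.602 and 0.804 CPM in WT and 106, 99.4 and 103 CPM in IC-21, 176-fold higher (log2 7.46, SE 0.15). The groups were far apart, and Cdkn2c (p18) was 25.8-fold higher too. Rbl1 (p107) was 4.08-fold, Myc 3.24-fold, Cdk6 2.55-fold and Trp53 2.15-fold higher. Cdkn1c was at 0 in IC-21, as were Ccnd2 (cyclin D2, 17.9 ± 2.29 CPM in WT) and Mycl (11.9 ± 1.35 CPM). Ccnd1, Ccnd3 and Cdk4 were not called, with log2 differences of -0.03, 0.01 and -0.05.

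Of 22 p53 target genes tested, 8 were at least 2-fold lower and 2 at least 2-fold higher (median log2 difference -0.83). With library totals alone those counts were 5 and 5. Cdkn1a (p21), a cycle inhibitor driven by p53, was at 466, 504 and 488 CPM in WT and 224, 233 and 227 CPM in IC-21 (2.13-fold lower). Mdm2, the ligase that degrades p53, was 2.33-fold lower and the kinase Plk2 4.69-fold lower. The exceptions were Ddb2, a DNA damage sensor, 7.75-fold higher, and Sesn2, a stress protein, 2.98-fold higher.

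Biosynthetic genes differed little by comparison. Among 30 genes of ribosome biogenesis and Myc targets, 5 were at least 2-fold higher and none lower by that much (median 0.24), and library totals alone gave 14 higher. Odc1, the first enzyme of polyamine synthesis, was 7.09-fold higher and Cad, which starts pyrimidine synthesis, 6.04-fold. Of 32 oxidative phosphorylation genes of the nucleus, 1 was at least 2-fold lower, Ndufa4 (3.25-fold, median of the list -0.31), and 2 without IC-21 replicate 2, IC-21 replicate 3 or WT replicate 2. With library totals alone none was lower and 4 were higher by that much.

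**Figure D3:**
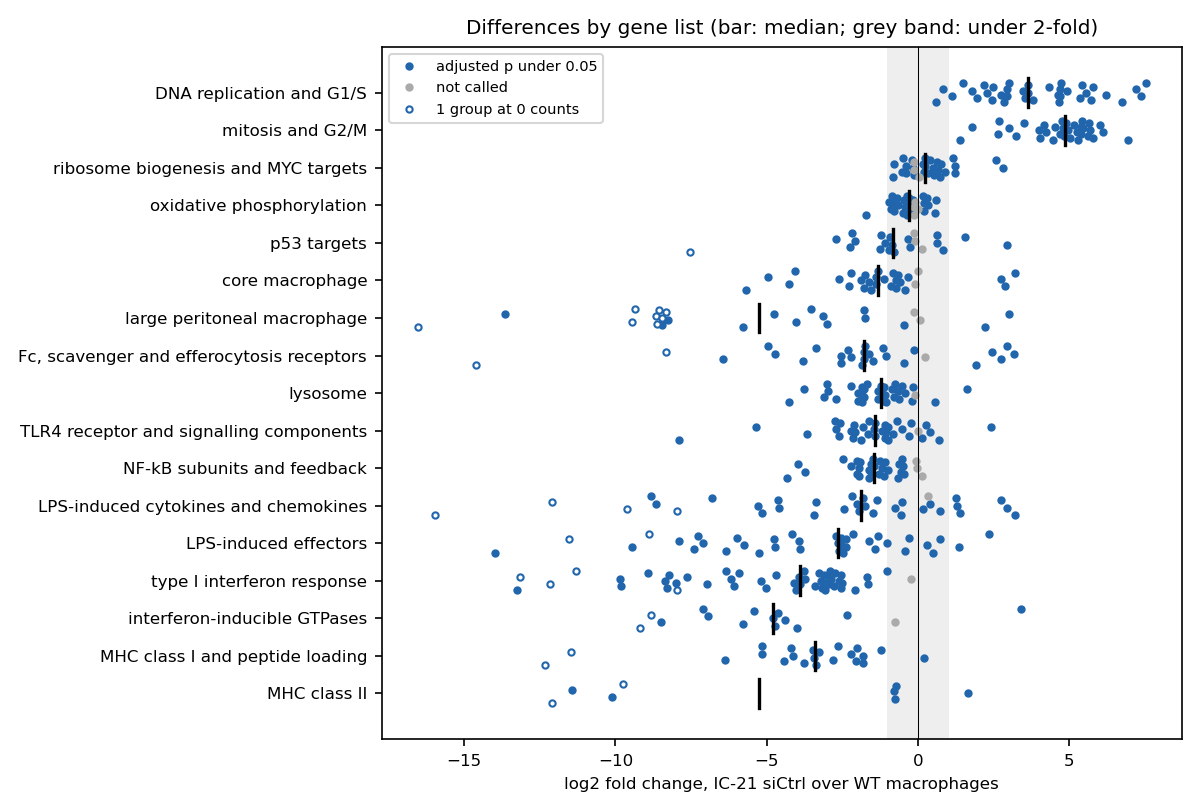
Log2 fold change of IC-21 over WT for each tested member of 17 gene lists, with the list median as a bar, members not called in grey, members at 0 in either group as open circles (their fitted values are no bound) and the band under 2-fold shaded. Replication and mitosis medians are 3.64 and 4.87, and the immune lists have medians below 0.

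The receptor for LPS was present in both sources but its partners were lower in IC-21. Tlr4 was at 92.5, 97.5 and 95.9 CPM in WT and 105, 109.8 and 103 CPM in IC-21, a 1.11-fold difference (log2 0.16, SE 0.054, adjusted p = 0.0082, edgeR). The groups just failed to overlap, and the difference was smaller than the shift between scalings. The call was lost with DESeq2 (adjusted p = 0.051), without IC-21 replicate 2 (adjusted p = 0.076, edgeR) and without WT replicate 1 (adjusted p = 0.102, edgeR). Cd14, which passes LPS to the receptor, was at 868, 951 and 942 CPM in WT and 122, 157 and 167 CPM in IC-21, 6.16-fold lower. Ly96, the co-receptor that binds LPS, was at 21.2, 17.6 and 19.98 and 4.09, 5.53 and 3.74 CPM, 4.297-fold lower. Both genes were lower in every IC-21 library than in any WT library.

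Of 35 receptor and signalling genes tested, 22 were at least 2-fold lower and 1 at least 2-fold higher (median -1.40), against 13 and 3 with library totals alone. The exception was Tlr9, the receptor for bacterial DNA, 5.403-fold higher at 11.9 ± 0.506 CPM in IC-21. Tlr1 was 40.5-fold lower, Tlr8 12.7-fold, Tlr7 6.69-fold and Tlr2 4.58-fold. Irf5, a factor for inflammatory cytokine genes, was 6.49-fold lower, and the adaptor of the TRIF arm Ticam2 4.202-fold. The adaptor Myd88 was 1.76-fold lower, and the kinases Map3k7 (TAK1) and Chuk (IKK-alpha) were 1.32-fold and 1.62-fold higher.

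NF-kB subunits and the genes that feed back on it were lower together. Of 31 tested, 21 were at least 2-fold lower and none was higher (median -1.44), and with library totals alone 10 were lower by that much. The inhibitor Nfkbie was 15.5-fold lower, at 364 ± 6.67 and 23.7 ± 1.94 CPM. Tnfaip3 (A20), a deubiquitinase that damps the pathway, was 5.503-fold lower, Nfkbia 2.27-fold and Rela 2.81-fold, and Socs1 19.97-fold. Nfkb1, which encodes p105 and p50, was not called (643 ± 5.73 and 610.3 ± 7.19 CPM). Of 20 immediate early genes, 9 were at least 2-fold lower, with Egr2 (62.8-fold) and Egr1 (46.9-fold) at the end, and Myc alone was at least 2-fold higher.

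Cytokine and chemokine genes known to respond to LPS did not move as one. Of 34 tested, 21 were at least 2-fold lower in IC-21 and 6 at least 2-fold higher, with a median log2 difference of -1.88. Tnf was at 2239.7, 2372 and 2291 CPM in WT and 449, 409.7 and 412 CPM in IC-21. Every IC-21 library was below every WT library, and Tnf was 5.44-fold lower (log2 -2.44, SE 0.048, adjusted p = 2.05e-39, edgeR). Il1b was at 771, 819.9 and 887 CPM in WT and 171, 208 and 236 CPM in IC-21, 4.02-fold lower, and Il1a was 2.77-fold lower.

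Both chains of interleukin-12 were nearly missing from the line. Il12a was at 57.4 ± 5.27 CPM in WT and at 0 in IC-21 (at least 212-fold lower). Il12b was at 110.5 ± 8.095 CPM in WT against 0.272 ± 0.263 CPM in IC-21 (457-fold lower). Il27 was 38.6-fold lower, whereas Ebi3, which encodes its partner chain, was 1.46-fold lower. The neutrophil chemokines differed from each other as well: Cxcl1 had no count in IC-21, Cxcl3 was 405-fold lower and Cxcl2 was 3.87-fold lower with 314, 339 and 338 CPM in the IC-21 libraries. Ccl5 was 24.6-fold lower, at 615 ± 59.03 and 24.97 ± 1.05 CPM.

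The 6 genes at least 2-fold higher in IC-21 were growth factors of myeloid cells and ligands of the monocyte receptor Ccr2, with 1 cytokine of the interleukin-6 family. Besides Csf1, Csf2 (GM-CSF) was 7.78-fold higher at 0.673 ± 0.188 and 5.27 ± 0.815 CPM, and Csf3 (G-CSF) 2.46-fold at 7.02 ± 1.19 and 17.2 ± 3.55 CPM. Ccl7 was 6.82-fold and Ccl2 2.63-fold higher, and Osm 2.39-fold. Il6 was at 53.5, 53.9 and 53.4 CPM in WT and 80.1, 93.97 and 94.2 CPM in IC-21, 1.68-fold higher (log2 0.75, SE 0.066, adjusted p = 3.23e-14, edgeR) without overlap. The chemokines Ccl3 and Ccl4 were close between the sources, with log2 differences of -0.74 and 0.19. Cxcl10, an interferon-responsive chemokine, was at 47.4, 48.3 and 43.9 CPM in WT and 37.5, 32.1 and 27.8 CPM in IC-21 (log2 -0.53, SE 0.086). That difference and that of Ccl3 lie close to the shift between scalings. Interferon beta itself (Ifnb1) had 3 counts over the WT libraries and 1 in IC-21, too few to compare, and Il10 had 8 and 0.

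Effector genes of the response were at least 2-fold lower in IC-21 in 30 of 37 tested, with 2 at least 2-fold higher and a median of -2.64. Nos2, which makes nitric oxide in activated macrophages, was at 17.7, 24.1 and 15.6 CPM in WT and 0.341, 0.132 and 0.456 CPM in IC-21 (63.3-fold lower). Acod1, the itaconate enzyme, was at 3972, 4336 and 4358 and 813, 827 and 828 CPM, 5.13-fold lower. Ptges, the prostaglandin E synthase that works with Ptgs2, was 38.1-fold lower, with a mean of 7.67 CPM in IC-21. Fpr1 and Fpr2, receptors for bacterial peptides, were 53.2-fold and 695-fold lower, and the cationic amino acid transporter Slc7a2 26.3-fold. The LPS-responsive lectin Clec4e (Mincle) was still at 1151 ± 31.9 CPM in IC-21, 6.13-fold lower. The costimulatory ligand Cd86 was 2.58-fold higher and Tnfrsf9 (4-1BB) 5.13-fold, while Cd40 was 3.08-fold lower.

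Type I interferon response genes were lower in IC-21 almost throughout. Of 49 genes tested, 48 were at least 2-fold lower in IC-21 and none was higher, with a median of -3.90 (-3.76 with genes at 0 set at their bound). The sum over the 51 listed genes was 8622 to 9623 CPM in WT and 833 to 899.6 CPM in IC-21. Isg15, a ubiquitin-like modifier, was at 107, 124 and 110.1 CPM in WT and 9.31, 7.84 and 5.83 CPM in IC-21, 14.9-fold lower (log2 -3.90, SE 0.10). Irf7, the factor that amplifies the response, was at 115, 144 and 122 and 0.681, 0.329 and 0.182 CPM, 329-fold lower. Zbp1, a sensor of nucleic acids, Mx1, an antiviral GTPase, and Usp18, which removes Isg15, were at 119 ± 7.84, 60.3 ± 5.34 and 32.6 ± 3.86 CPM in WT and at 0 in IC-21. Slfn5 was at 689 ± 38.6 CPM in WT and had 2 counts over IC-21. Ifi27l2a was not called (10.3 ± 0.296 and 8.87 ± 0.835 CPM).

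Genes that receive and relay the interferon signal were lower as well. Ifnar1 was at 337, 352 and 359 CPM in WT and 87.3, 86.2 and 90.6 CPM in IC-21, 3.97-fold lower, and Ifnar2 was 3.58-fold lower. Stat2 was 8.45-fold lower and Irf9 4.18-fold, and Irf1, which responds to interferon gamma and NF-kB, 32.7-fold. Of 16 receptor and Jak-Stat genes all were lower, 11 by at least 2-fold (median -1.49), and with library totals alone 7 were lower by that much. Of 15 inducible GTPases tested, 13 were at least 2-fold lower (median -4.80), led among those with over 3 counts in IC-21 by Gbp5 (359-fold) and Gbp2 (139-fold). Gbp8 was 10.6-fold higher, at 1.96 ± 0.242 CPM.

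Promoters of the interferon genes are shown since 48 of the 49 genes tested were lower together. The letters GAAA, any 2 bases and GAAA again, on either strand, the core of the interferon-stimulated response element, occurred in 42.1% of 38 interferon gene promoters found and in 90.9% of 11 GTPase promoters. It occurred in 2.76% of promoters of protein-coding genes tested and in 3.04% of all promoters. The element is in capitals in these windows before the start of a gene nearly at 0 in IC-21 and of an oligoadenylate synthetase.
Slfn5, chr11:82951902-82952001, plus strand: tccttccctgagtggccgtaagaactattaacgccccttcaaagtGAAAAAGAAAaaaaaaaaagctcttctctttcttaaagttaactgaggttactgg
Oas3, chr5:120777680-120777779, minus strand: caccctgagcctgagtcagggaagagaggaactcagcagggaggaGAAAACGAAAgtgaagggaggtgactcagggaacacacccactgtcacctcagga
Oas3 was at 162, 193 and 169 CPM in WT and 0.341, 0.461 and 0.182 CPM in IC-21, 489-fold lower.

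Antigen presentation genes were mostly lower in IC-21. Of 22 MHC class I and peptide loading genes tested, 21 were at least 2-fold lower (median -3.39). H2-K1, a classical class I heavy chain, was at 1535, 1683 and 1621 CPM in WT and 37.3, 49.8 and 47.7 CPM in IC-21 (35.5-fold lower), H2-D1 was 18.4-fold lower and the light chain B2m 4.66-fold. The peptide transporter subunits Tap1 and Tap2 were 9.53-fold and 11.1-fold lower, and Nlrc5, the factor that drives class I genes, 17.5-fold. Class I genes are near-identical copies of each other, so reads may be split between them and the single values are uncertain. Of 8 class II genes tested, 4 were at least 2-fold lower and 1, H2-Oa, a part of the complex that restrains peptide loading, was at least 2-fold higher. H2-Eb1 was at 57.4 ± 7.25 CPM in WT and 0 in IC-21, H2-Ab1 had 1 and H2-Aa 2 counts in all of IC-21, and their master regulator Ciita was at 11.2 ± 0.768 CPM in WT and 0 in IC-21. The invariant chain Cd74 remained at 219.8, 196 and 206 CPM in IC-21, against 340.1, 388 and 342 in WT (1.72-fold lower). B cells and dendritic cells carry class II too, and their marker sums given above were also lower in IC-21. Most of the B cell sum was Cd22, which IC-21 has as well. Their part in the class II levels of WT was not tested.

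Phagocytic and digestive genes were lower with exceptions. Of 27 Fc, scavenger and efferocytosis receptors tested, 19 were at least 2-fold lower and 5 at least 2-fold higher (median -1.79). Cd36, a receptor for oxidised lipid, was at 1939.7 ± 106 and 73.1 ± 3.15 CPM (26.5-fold lower) and Clec7a (dectin-1), which binds fungal glucan, 10.4-fold lower. Clec4n (dectin-2) was 9.16-fold, the scavenger receptor Colec12 7.73-fold and the inhibitory receptor Havcr2 (Tim-3) 5.48-fold higher. Of 35 lysosome genes 23 were at least 2-fold lower (median -1.20), and 14 with library totals alone. Gpnmb, at 20589.5 ± 979 CPM among the most abundant of them in WT, was 7.77-fold lower, whereas the protease Ctsk was 3.09-fold higher at 1269 ± 20.1 CPM. Of 20 complement genes 15 were at least 2-fold lower, and properdin (Cfp) was 7.78-fold higher at 314 ± 4.66 CPM. Of 19 coagulation and fibrinolysis genes 17 were at least 2-fold lower, with F7 (factor VII) 712-fold.

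Of 20 LXR target and lipid handling genes tested, 14 were at least 2-fold lower in IC-21 and none higher by that much (median -1.47), against 9 and 1 with library totals alone. Apoe, the apolipoprotein that macrophages secrete, was at 4164, 4400.0 and 4315 CPM in WT and 3.75, 4.94 and 3.37 CPM in IC-21, 1036-fold lower. The desaturase gene Scd1 was at 0 and Scd2 2737-fold lower in IC-21, and Pltp was 391-fold lower. The LXR receptor Nr1h3, for which Apoe, Scd1 and Pltp are known targets, was 6.67-fold lower, while its further targets Abca1 and Mylip were 1.59-fold and 1.94-fold lower. Of 27 genes of the NRF2 antioxidant list, 16 were at least 2-fold lower and 2 higher by that much (median -1.16), against 7 and 6 with library totals alone. The 2 were Gsta3, a glutathione transferase (40.1-fold), and malic enzyme Me1 (8.93-fold). Smim30, listed in the annotation as 2610001J05Rik, was itself 3.69-fold lower in IC-21, at 56.2, 65.3 and 63.4 CPM in WT and 17.5, 15.8 and 17.1 CPM in IC-21.

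A second pair of groups that shares no library with the first was compared in the same way. Cell source, transfection and the way Smim30 was perturbed change together there, and cannot be told apart. IC-21 transfected for 24 h with a Smim30 siRNA (siSmim30, 3 libraries) was set against macrophages of Smim30-mutant mice (Mut, 3 libraries), with the same LPS. Smim30 RNA was at 61.8 ± 7.02 CPM in Mut, so its level does not show the mutation, and at 8.51 ± 1.29 CPM in siSmim30. Of 13940 genes tested, 80.6% were called (40.2% higher, 40.4% lower), 22.8% were at least 2-fold higher and 20.5% at least 2-fold lower in the line. All 37 replication genes were higher, 35 by at least 2-fold (median 3.75), and all 34 mitosis genes were at least 2-fold higher (median 4.88). Core macrophage genes gave 16 of 29 at least 2-fold lower (median -1.22), LPS cytokines 22 of 35 (median -1.97), LPS effectors 29 of 37 (median -2.77) and interferon genes 49 of 50 (median -4.60). Tnf differed by -2.54 on the log2 scale, Csf1 by 2.92 and Cd14 by -2.78. Il6 was at 122 ± 25.3 CPM in Mut and 117 ± 17.6 CPM in siSmim30, a log2 difference of -0.04 that was not called, and Tlr4 differed by -0.13. Cxcl10 differed by -1.47.

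A further comparison used primary cells given an added agent before LPS. Mut macrophages given a control adenovirus for 24 h before LPS (Mut AdCtrl, 3 libraries) were set against the IC-21 libraries of the first comparison, so both share their IC-21 side. Of 14305 genes tested 83.3% were called (41.4% higher, 41.9% lower), 24.4% at least 2-fold higher and 22.2% at least 2-fold lower in IC-21. Replication genes were at least 2-fold higher in 34 of 37 (median 3.499) and mitosis genes in 34 of 34 (median 5.04). Core macrophage genes were at least 2-fold lower in 19 of 29 (median -1.37) and interferon genes in 45 of 48 (median -2.78, against -3.90 with WT). LPS cytokines gave 17 of 31 at least 2-fold lower and 6 higher (median -1.46). LPS effectors gave 22 of 37 at least 2-fold lower and 8 higher (median -1.63), against 30 and 2 with WT. Several cytokine values stood elsewhere than against WT, a difference that was not tested as such. Il6 was at 1.98 ± 0.223 CPM in Mut AdCtrl, so that IC-21 was higher by 5.48 on the log2 scale, against 0.75 with WT. Csf3 differed by 4.12 and 1.30, Il1b by -1.25 and -2.01, Clec4e by 0.59 and -2.62, and Marco, a scavenger receptor, by 3.40 and -0.46, each against Mut AdCtrl and WT in that order. Tlr4 was at 199 ± 1.65 CPM in Mut AdCtrl and differed by -0.91. Tnf differed by -2.52 against Mut AdCtrl and -2.44 against WT. The cholesterol synthesis list, with 8 of 24 genes at least 2-fold lower than in WT and 1 higher (median -0.57), had 1 of 23 lower and 8 higher against Mut AdCtrl (median 0.57). With library totals alone, 2 were lower and 5 higher by that much against WT. The median against WT is smaller than the shift between scalings, which moves genes up in IC-21, so its direction is not settled. Against Mut AdCtrl the list was not counted with other scalings. There the median of all genes was 0.004 with TMM factors and 0.71 with library totals alone, a shift in the direction of the list's own median. The NRF2 list had a median of 0.08 against Mut AdCtrl. Between siSmim30 and Mut without virus, Il6 was not called and the cholesterol list had a median of -0.59. Virus and the 24 h spent with it change together between Mut and Mut AdCtrl and cannot be told apart. Between WT and Mut AdCtrl the Smim30 genotype changes as well.

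**Figure D4:**
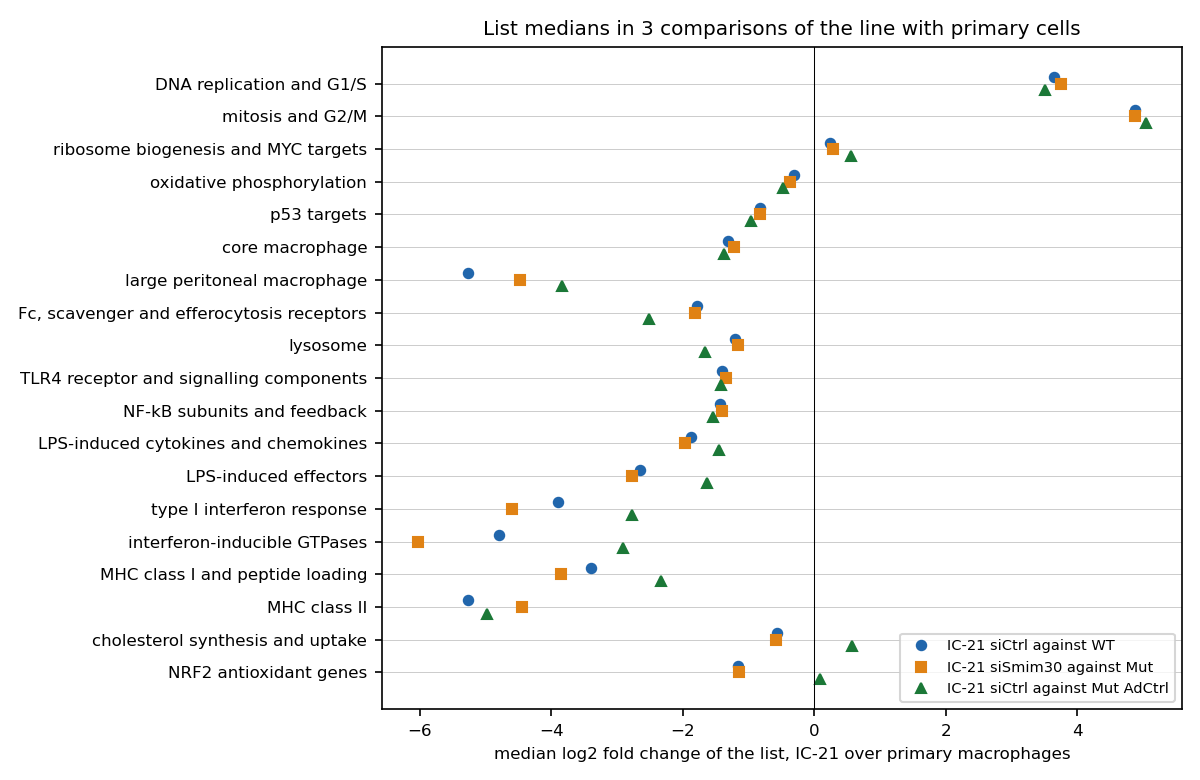
Median log2 fold change of 19 gene lists, IC-21 over primary macrophages, for the line against WT (circles), siSmim30 against Mut (squares) and the line against Mut AdCtrl (triangles, sharing IC-21 libraries with the circles). Cholesterol synthesis has medians of -0.57, -0.59 and 0.57, each smaller than the shift between scalings, and replication has 3.64, 3.75 and 3.499.

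Some genes of the primary cells had no count at all in the line. The CPM cutoffs and limits for such genes, here and in the next paragraph, used library totals without TMM factors. Of 7444 protein-coding genes at 10 CPM or more in every WT library, 121 (1.62%) had no count in the 27487479 read pairs of the 3 IC-21 libraries, which allows up to 0.109 CPM. No count was seen in siSmim30 either for 94 of them, and 86 of those were at 10 CPM or more in every Mut library too. In the reverse direction, 18 of 8533 genes at 10 CPM or more in every IC-21 library had no count in WT. Of these, 9 had no count in any of the 12 primary macrophage libraries of the series. The genes at 0 in IC-21 included the receptors Axl, Fgfr1 and Igf1r, the kinase Ripk3 of necroptosis and the growth factor Vegfa. RefSeq promoters were found for 90 of the 121. Their 250 bases before the start held a median of 12 CpG dinucleotides, against 17 in 6012 promoters of the 7444 genes.

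Neighbours were sometimes at or near 0 together. Among 10676 protein-coding genes at 1 CPM or more in WT on average, 593 (5.56%) had at most 3 counts over the 6 IC-21 libraries (siCtrl and siSmim30). In the order of the 10676 genes along a chromosome, 422 of the 593 stood alone and 61 runs held 2 neighbours. A further 14 runs held at least 3 neighbours. A run of 5, Ms4a4a, Ms4a4c, Ms4a6c, Gm8369 and Ms4a6b, lay at chr19:11375523-11531256 (GRCm38), a family of membrane proteins, with 2.14 to 216 CPM in WT. A run of 4 on chromosome 5 held Gtpbp10 and the metalloreductases Steap1, Steap2 and Steap4. The genes Pdgfra, Kit and Kdr formed a run of 3 receptor kinases at chr5:75152292-75978458. The Y-linked genes Ddx3y, Eif2s3y, Uty and Kdm5d were at 78.5, 44.9, 27.1 and 31.1 CPM in WT, with 2 counts of Kdm5d and none of the other three over the 3 IC-21 libraries. Xist had 3 counts in WT and 3 in IC-21. RNA levels alone do not show whether a gene is present in the genome of the line.

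By chromosome, the genes of chromosome 12 stood highest in IC-21. Their median log2 difference was 0.69 over 533 genes tested, and 37.7% were at least 2-fold higher against 22.6% of all genes. In siSmim30 against Mut the median was 0.72 over 535 genes, with 41.5% at least 2-fold higher. Chromosome 8 was lowest among the autosomes at -0.34 and -0.33. The medians of the remaining autosomes and of X lay between -0.25 and 0.25 in the first comparison. Copy number was not measured.

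**Figure D5:**
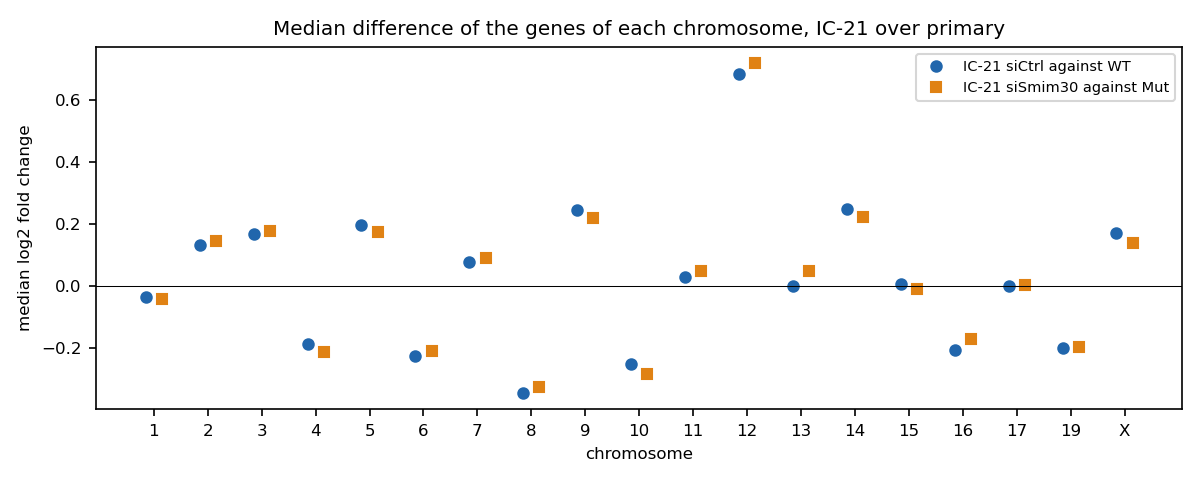
Median log2 fold change of the tested genes of each chromosome drawn, for IC-21 siCtrl over WT (circles) and siSmim30 over Mut (squares), scaled by TMM factors. Chromosome 12 lies at 0.69 and 0.72 and chromosome 8 at -0.34 and -0.33.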

How the data were processed

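RNA of LPS-treated mouse macrophages was sequenced from strand-specific libraries of total RNA, per the labels' protocols. The authors deposited unnormalised counts of read pairs per gene for 55401 genes. Pairs were assigned to exons by featureCounts 2.0.3 in reverse-strand mode against GENCODE M25, per the file headers. Trimming with fastp, quality checks with FastQC and alignment with HISAT2 are named in the submitters' processing notes, and their versions are not given in the sources used here. Symbols came from GENCODE M21 tables, matched by identifier for 55141 genes. Smim30 was taken to be 2610001J05Rik.

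Groups came from the sample titles. Each comparison used its own 6 libraries in edgeR 4.0.16 (filterByExpr, TMM scaling, robust quasi-likelihood F test, Benjamini-Hochberg adjustment at 0.05) in R 4.3.3. CPM is scaled by TMM within a comparison. The correlations, the cutoffs of 10 and 1 CPM and the detection limits printed in CPM used library totals alone. An exact permutation test of 3 libraries against 3 cannot go below 0.1, so none was used. Detection was taken to start at 3 counts per library, and intervals are exact at 95% for counting error only. Alternatives were other scalings and filters, DESeq2 1.42.0, limma-voom (limma 3.58.1), a test against a fold of 2, a fit of all 18 libraries, the replicate number as a block, ribosomal RNA genes left out, a length offset and each library left out. Those of the comparisons with Mut and Mut AdCtrl were added after the data were seen.

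Members and gene lists were chosen with earlier results of these data known. The rule names 11 fixed genes, the 10 largest differences in each direction among called genes whose mean log2 CPM reached 2 and whose groups did not overlap, and up to 6 called members per list and direction, passing over clone names and pseudogenes. Other named members were needed to show what did not differ or were chosen after their values were seen. Some genes allowed by the rule are left unnamed. The test was tried on simulated data for IC-21 against WT with 14066 genes and 50 seeded genes per fold. It recovered 72% of 1.5-fold, 76% of 2-fold, 96% of 4-fold and 100% of 8-fold differences, with 5.49% of calls false. Seeded genes were split evenly between directions and all other genes were equal between groups, whereas 80.3% of genes were called in the data. The simulation held no shift of composition, so it cannot give the error that comes from scaling.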

Additional observations from a re-analysis of the deposited data

How the results depend on the processing

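In IC-21 against WT, the 6040 genes called at 2-fold or more kept their direction under every alternative that tested them. With library totals alone the genes higher and lower were 9176 and 3031, and at 2-fold or more 5661 and 1705. Against a fold of 2 (glmTreat) 2498 genes were higher and 2458 lower. In siSmim30 against Mut these values were 8940, 3089, 5480 and 1727 with library totals, and 2528 and 2468 against a fold of 2. In IC-21 against Mut AdCtrl they were 9218, 3348, 5871 and 1899, and 2815 and 2772. Leaving out each library in turn gave 5446 to 5661 genes higher and 5628 to 5777 lower than WT, 3241 to 3414 and 2997 to 3065 at 2-fold or more. All other counts over all genes stayed within 1.5 times. With the replicate block 5591 genes were higher and 5600 lower than in WT, 3188 and 2879 at 2-fold or more. The numbers do not pair the samples (r of deviations -0.013, 0.057 and 0.040).

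Some named genes called in at least 1 of the fits compared changed direction. With library totals alone these were Abca1 to 0.038 (log2), Ccnd1 to 0.67, Cdk4 to 0.65, Cxcl10 to 0.18, Ebi3 to 0.16, Ifi27l2a to 0.47, Itgam to 0.70, Marco to 0.25 and Nfkb1 to 0.63. Upper-quartile factors changed Cdk4 to 0.14, Itgam to 0.19 and Nfkb1 to 0.12. The alternative's own construction moves every gene up in IC-21. Values of Ccnd1, Ccnd3, Icam2 and Itgam that were called in neither fit also changed sign under some alternatives. Of the other values of named genes under an alternative, 3087 kept their side of the threshold, 24 lost the call and 9 gained it. List counts stayed within 1.5 times in 1323 cases and moved further in 45. Of these, 6 came from leaving out 1 library: oxidative phosphorylation genes at least 2-fold lower went from 1 to 2 without siCtrl replicate 2, siCtrl replicate 3 or WT replicate 2, and B cell markers from 2 of 4 tested to 4 of 6 without siCtrl replicate 1, 2 or 3 in turn. Depth limits genes under 3 counts in a library (0.268 to 0.438 CPM).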
